A study of Rattus norvegicus with 2 samples.

Results

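The cells described here are the T and innate lymphoid cells of the fetal rat colon, 136 barcodes of the 14115 that passed the quality limits in 2 single-cell RNA-seq libraries. They were chosen by their own counts. A barcode needed at least 500 genes and at most 20% mitochondrially encoded UMIs (unique molecular identifiers, 1 per captured transcript), and UMIs in at least 2 of Cd3e, Cd3d, Cd3g, Cd2, Cd7, Lck and Nkg7. It also had to hold fewer than 5 UMIs of Lyz2, fewer than 3 of the C1q genes together, fewer than 3 of the MHC class II genes RT1-Ba, RT1-Bb, RT1-Da and RT1-Db1 at 2 UMIs or more, and fewer than 4 of the epithelial genes Epcam, Cldn7, Cldn4, Cldn3, Elf3, Vil1 and Lgals4. Il7r, the eighth gene of the rule, was not analysed here. The control library gave 49 such cells of 6879 kept barcodes and the maternal obesity library 87 of 7236.

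Both libraries were made from wild-type rat colon at E19.5, late in gestation, after enzymatic digestion and red cell lysis, replicate 1 of the control group and replicate 2 of the maternal obesity group. The labels give neither the number nor the sex of the fetuses, nor the strain or diet. With 1 library per group no difference between the groups was tested, and every interval is an exact 95% interval that covers counting error only. Differences between fetuses, dams and library preparations cannot be told apart from the group.

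T cells recognise antigen through a receptor whose chains signal with the Cd3 proteins and Cd247. Natural killer (NK) cells and innate lymphoid cells share many of the signalling and effector genes of T cells but carry no rearranged antigen receptor. In the gut, cells of these kinds sit in and under the epithelium.

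The libraries held 103013814 UMIs (control) and 120811946 UMIs (maternal obesity). The selected cells held 366048 and 836539 UMIs, with medians of 6024 and 7698 UMIs and 2022 and 2389 genes per cell, against medians of 9912 and 10104 UMIs over all kept barcodes. The libraries shared 130 barcode sequences, 80 of them kept in both, and none was a selected cell in both. Haemoglobin UMIs, which come from red cells, were found in 35 of 49 control cells and in 87 of 87 maternal obesity cells, with medians of 0.0178% and 0.183% of a cell's UMIs. Summed over the selected cells they made up 2.87% and 3.88%, with 1 control and 2 maternal obesity cells at 10% or more, and over all kept barcodes 3.45% and 9.99%. In the lymphoid clusters described next, erythroid and haemoglobin genes summed to 252.2 and 2219 CPM (UMIs scaled by the total of these cells). Their part in the results was not tested.

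A large part of the selected cells carried a different programme from the label. Clustering of the 136 cells gave 8 clusters, L0 to L7. In 4 of them (L0 to L3) markers of T, NK and innate lymphoid cells outnumbered those of other cell types among the 50 leading genes, and these held 89 cells (65.4%), 35 of 49 in control (71.4%, 56.7 to 83.4), and 54 of 87 in maternal obesity (62.1%, 51.0 to 72.3). The other 47 cells lay in L4 to L7, which were led by genes of other lineages. At a clustering resolution of 0.5 in place of 1 the lymphoid clusters held 20 and 33 cells (40.8% and 37.9%), and every value given for lymphoid clusters rests on the division at 1. The clusters rest on the same counts that chose the cells, so their leading genes are a description.

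Cluster L2 (17 cells, 8 control and 9 maternal obesity) was T cell-like. Cd3e, a chain of the receptor complex, had UMIs in 15 of its 17 cells, and Cd3d and Cd3g in 17 and 16. Cd8b and Cd8a, the chains of the Cd8 co-receptor, were found in 15 and 16 cells. Themis and Trat1, which act in receptor signalling, were found in 12 and 13 of them. Cd4 had no UMI in any of the 17. Receptor constant genes (Trac, Trbc1, Trbc2, Trdc) were not analysed here.

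Clusters L1 (29 cells) and L3 (8 cells) were NK or cytotoxic-like. Gzmk, a granzyme, was found in 29 of 29 and 8 of 8 cells. The chemokine gene Ccl5 was found in 28 and 6 cells and the NK receptor chain Klrd1 in 26 and 8. Cd3e had no UMI in either cluster, while Tyrobp, an adaptor of NK receptors, was found in 29 of 29 and 7 of 8 cells. L3 differed from L1 by cycling genes: Mki67 had UMIs in 8 of 8 cells of L3 and in 3 of 29 of L1.

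Cluster L0 (35 cells, 14 control and 21 maternal obesity) stayed unnamed. Its leading genes were split over several lymphoid programmes. Il2ra, a chain of the interleukin 2 receptor, had UMIs in 8 of its cells and Ccr6, a chemokine receptor of lymphoid tissue inducer cells, also in 8. Gata3, the factor of type 2 innate cells and T cells, was found in 7 cells. Il22, the effector cytokine of type 3 cells, gave 10 UMIs in 2 cells. Ctsw, a protease gene of cytotoxic lymphocytes, was widespread, with UMIs in 31 of 35 cells, and the chemokine gene Xcl1 in 24. Genes of the T cell receptor complex were found as well, Cd3d in 19 of the 35 cells, Cd3g in 16, Cd3e in 5 and Cd247 in 22. By library, Cd3d was found in 10 of 14 control and 9 of 21 maternal obesity cells, and Cd3g in 6 and 10.

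**Figure D1:**
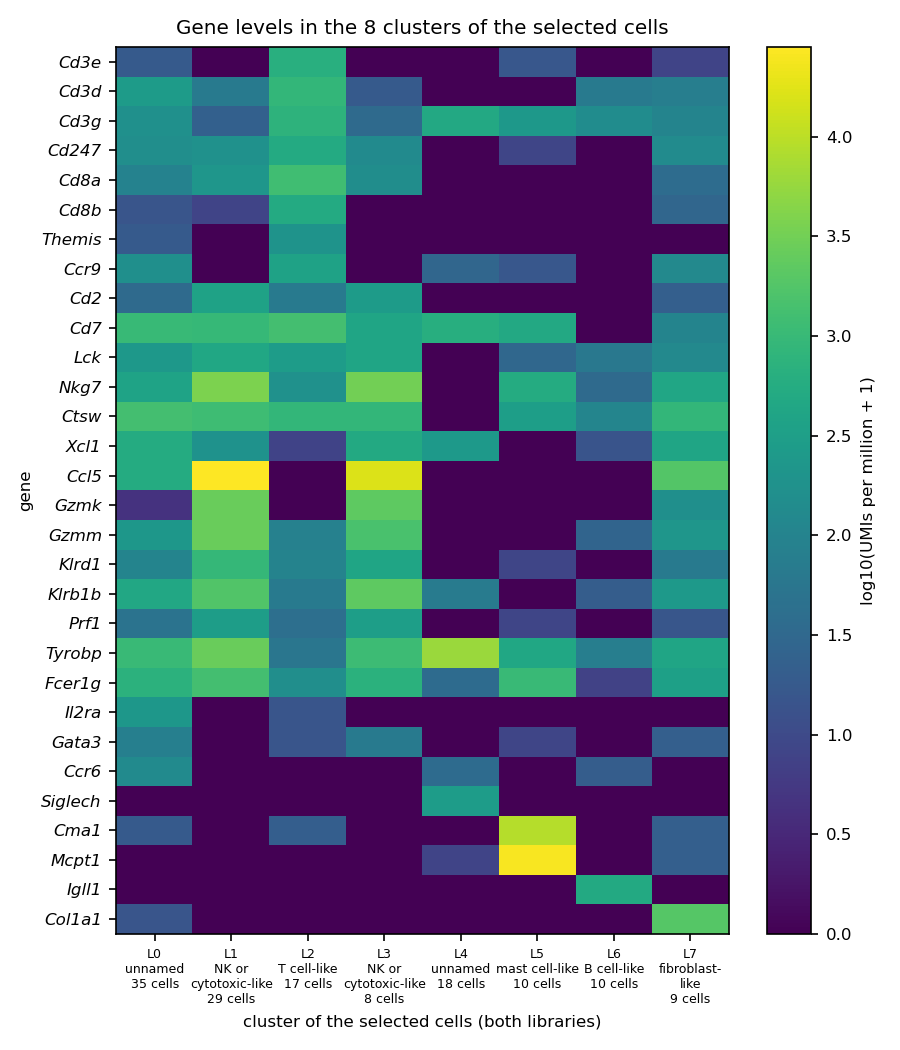
Level of 30 genes (rows) in the 8 clusters of the selected cells (columns), both libraries summed, as log10 of CPM plus 1. Cd3e, Cd8b and Themis are highest in L2 and Ccl5, Gzmk and Gzmm in L1 and L3, with lower levels of Cd8a in L1 and L3 and of Gzmm in L2, while Cd3g and Cd7 also appear in L4.

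The remaining clusters entered through few of the selection genes. All 18 cells of L4 (7 control, 11 maternal obesity) held UMIs of Cd7 and Cd3g, and none held Cd3e, Cd3d, Cd2, Lck or Nkg7. L4 was led by Siglech, a surface lectin of plasmacytoid dendritic cells, found in 15 of 18 cells, and by Pld4, found in 18 of 18. Irf8, a factor that plasmacytoid and other dendritic cells need, was also found in 18 of 18, and Ptcra, the surrogate receptor chain of early T cells and a known gene of plasmacytoid cells, in 8. It met no naming rule and stayed unnamed.

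L5 (10 cells) was mast cell-like, led by the protease genes Mcpt1, Cpa3, Mcpt4 and Cma1. These were found in 7, 5, 5 and 8 cells, with 30.1% to 45.0% of each gene's UMIs in 1 cell. The 10 cells of L5 all held Cd7 and Nkg7. The eosinophil granule gene Prg2 was found in 8 of them. L6 (10 cells) was B cell-like, led by Igll1 and Vpreb1, genes of immature B cells. Cd3g was found in 8 of its cells, Cd3d in 7 and Lck in 7, and Rag1, which cuts antigen receptor genes, in 7. L7 (1 control and 8 maternal obesity cells) was fibroblast-like, with Col1a1 in 9 of 9 cells beside Ptprc, the pan-leukocyte gene, in 9 of 9, at a median of 13189 UMIs per cell. Scrublet called 1 of the 136 cells a doublet, a cell of L7, and 28 lay among the barcodes with the highest doublet scores when the expected number was taken, 11 in control and 17 in maternal obesity. Of these 28, 6 were in L7, 8 in L5, 8 in L6, 4 in L0 and 2 in L2. The part of doublets in the clusters was not tested.

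Cells at the edge of the rule were mixed. Among barcodes that met every other clause, 64 in control and 128 in maternal obesity had exactly 1 selection gene, and Ptprc was found in 43.8% and 35.2% of them. With exactly 2 genes (19 and 33 cells) the share was 89.5% and 84.9%, with 3 or more (30 and 54 cells) 86.7% and 92.6%, and with none 0.940% and 1.96%. Lck was the single gene of 29 of the 64 and 76 of the 128 barcodes just outside.

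The selected cells differed in how many of the 3 Cd3 genes had UMIs. At least 2 Cd3 genes were found in 17 of 49 control cells (34.7%, 21.7 to 49.6) and 20 of 87 maternal obesity cells (23.0%, 14.6 to 33.2), exactly 1 in 12 and 35, and none in 20 and 32. A count of 0 UMIs does not show that a cell lacks the receptor complex, and of the cells with at least 2 Cd3 genes 15 of 17 and 13 of 20 lay in lymphoid clusters. The intervals of the 2 libraries overlap. Cd3e was never the only Cd3 gene, whereas Cd3g was in 9 control and 25 maternal obesity cells.

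Several genes outside the selection differed between cells with at least 2 Cd3 genes and cells with none. The Cd3 genes were part of the rule, and a cell with none had to enter through Cd2, Cd7, Lck or Nkg7, so these counts are a description. Ccr9, a receptor that guides lymphocytes to the gut, was found in 12 of 17 control and 12 of 20 maternal obesity cells with at least 2 Cd3 genes, against 1 of 20 and 0 of 32 cells with none. Themis was found in 7 of 17 and 7 of 20, against 0 of 20 and 0 of 32. Ccl5 was found in 0 of 17 and 2 of 20 against 13 of 20 and 19 of 32. Gzmk was found in 0 of 17 and 1 of 20 against 14 of 20 and 20 of 32. Fcer1g, a signalling chain that NK and innate cells use, was found in 5 of 17 and 8 of 20 against 19 of 20 and 30 of 32. Gzmm, another granzyme, was found in 3 of 17 and 11 of 20 against 17 of 20 and 21 of 32. Cd8a or Cd8b was found in 11 of 17 and 9 of 20 cells with at least 2 Cd3 genes, and Cd4 in 0 of 17 and 0 of 20, with exact upper bounds of 19.51% and 16.84% on the share of cells with a UMI, not of cells that express it. These counts are not adjusted for depth.

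**Figure D2:**
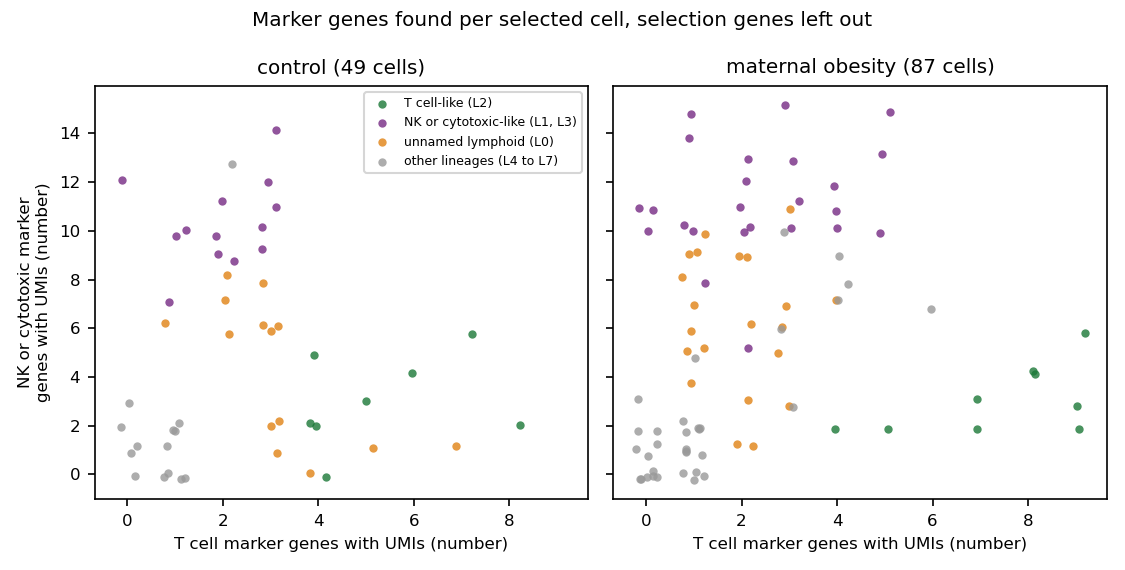
Number of T cell marker genes (horizontal) and of NK or cytotoxic marker genes (vertical) with UMIs in each selected cell, selection genes left out, with a small random offset, 1 point per cell in control (left) and maternal obesity (right). T cell-like cells (L2) hold 4 to 9 T cell markers and 0 to 6 NK markers, and NK or cytotoxic-like cells (L1, L3) hold 5 to 15 NK markers and 0 to 5 T cell markers.

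After thinning each cell to 2000 UMIs, at least 2 T cell markers outside the selection were found in 43.8% of control cells (29.5 to 58.8, 21 of 48) and 22.4% of maternal obesity cells (14.0 to 32.7, 19 of 85). Without thinning the shares were 63.3% and 50.6%. NK or cytotoxic markers were found in 60.4% (45.3 to 74.2) and 63.5% (52.4 to 73.7). The T cell share was thus lower in the maternal obesity library and the NK share similar, with T cell intervals that overlap. Markers of type 2 innate lymphoid cells were found in 18.8% (8.95 to 32.6) and 3.53% (0.734 to 9.97), intervals that overlap. Without thinning the type 2 shares were 32.7% and 26.4%, for at least 1 marker 35.4% and 24.7%, and at 1000 UMIs the control share was 4.17%, so the gap depends on these settings. Markers of type 3 cells were found in 6.25% and 5.88%. Fibroblasts, which should lack these genes, gave 0 of 404 and 1 of 1406 cells for T cell and again for NK markers, at median depths of 9573 and 8607 UMIs. For type 2 markers they gave 0.743% and 0.356%, and for type 3 markers 0 of 404 cells and 2.42%. Fibroblasts were defined without the selected cells, L7 among them, so these low shares are partly fixed in advance.

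Markers of cells that the suspension also held were found too, at the same thinned depth. At least 2 epithelial markers were found in 37.5% of the selected control cells and 18.8% of the maternal obesity cells, and in 23.3% and 13.6% of fibroblasts. At least 2 erythroid markers were found in 14.6% and 75.3% of the selected cells and in 6.44% and 66.6% of fibroblasts. The part of these RNAs in the differences between libraries was not tested.

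The selected cells made up 0.712% (0.527 to 0.941) of kept control barcodes and 1.20% (0.964 to 1.48) of those of the maternal obesity library, a ratio of 1.69 (1.18 to 2.45). Over the lymphoid clusters alone, an alternative chosen after the data were seen, the shares were 0.509% (35 cells) and 0.746% (54 cells), and the ratio was 1.47 (0.941 to 2.31), an interval that includes 1.

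The selection genes themselves show how unevenly the label is met. Levels are given as CPM, the UMIs of a gene scaled by the library's total over the selected cells. Cd7, a surface protein of early T and NK cells, was the highest of them in control and second to Nkg7 in maternal obesity, with 384 UMIs in 33 of the 49 control cells (1049 CPM) and 424 UMIs in 60 of the 87 maternal obesity cells (506.9 CPM), 2.07-fold lower (1.80 to 2.38). Nkg7, a granule protein of cytotoxic cells, stood at 816.8 CPM (299 UMIs in 30 cells) and 822.4 CPM (688 UMIs in 57 cells). Its ratio was 1.01 (0.878 to 1.16). Lck, the kinase that starts receptor signalling, was higher in maternal obesity, at 133.9 against 211.6 CPM (49 and 177 UMIs), a ratio of 1.58 (1.15 to 2.22). Cd2, an adhesion receptor, stood at 84.7 and 69.3 CPM.

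The 3 Cd3 genes were lower or similar. Cd3d gave 107 UMIs in 20 control cells (292.3 CPM) and 135 UMIs in 29 cells of the maternal obesity library (161.4 CPM). Cd3e stood at 117.5 CPM (43 UMIs in 11 cells) and 71.7 CPM (60 UMIs in 11 cells). Cd3g differed less, at 281.4 and 237.9 CPM (103 UMIs in 25 cells and 199 UMIs in 45 cells). Since the rule counted these genes, their levels are a description. In fibroblasts, defined without the selected cells, the 7 genes gave 0 to 12 UMIs each in a library, the 12 being Lck in maternal obesity. Other cells held some of them more often. In MHC class II cells Cd7 was found in 37.8% (control) and 43.3% (maternal obesity) and Cd3g in 11.1% and 24.1%. In epithelial cells Cd3g was found in 2.26% and 8.05% and Lck in 3.33% and 5.15%.

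Genes outside the selection with the highest level over other kept barcodes were mostly of lymphoid function, a description, since the rule chose the cells by related genes. Ptprc was 38.7-fold (33.3 to 44.7) higher in control and 23.7-fold (21.5 to 26.0) in maternal obesity than over all other kept barcodes. Ccl5 stood at 6171 and 3596 CPM, against 2.69 and 5.15 CPM in other barcodes, yet came from 14 of 49 and 28 of 87 cells. Ctsw stood at 838.7 and 719.6 CPM in 32 and 63 cells, and Klrb1b, an NK receptor, at 475.3 and 477.0 CPM in 28 and 51 cells. Both were also present in MHC class II cells, Ctsw at 15.09 and 57.45 CPM and Klrb1b at 94.3 and 116.8 CPM. The list of 20 also held Mcpt1, Mcpt1l4 and Cma1, proteases of mast cells: Mcpt1 reached 3628 and 2496 CPM from 3 and 6 cells. Over all genes with at least 20 UMIs, 766 of 6243 (12.3%) were at least 2-fold higher than in other kept barcodes in both libraries.

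Promoter sequences of 4 cytotoxic genes are shown as examples that hold a motif of RUNX factors, and were chosen after the motif had been seen. Nkg7, Gzmk and Gzmm were highest in L1 and L3, and Xcl1 was found in 24 of 35 cells of L0 and 12 of 29 of L1. RUNX factors bind the letters TGTGGT, and Runx3 was found in 13 control and 29 maternal obesity cells, Runx1 in 15 and 28. The lines give the 250 bases before the RefSeq gene start (GRCr8, gene strand), with TGTGGT or its reverse complement ACCACA in capitals. They lie at chr1:102981247-102981496 (+) for Nkg7, chr2:46582016-46582265 (-) for Gzmk, chr7:10667257-10667506 (-) for Gzmm and chr13:79785441-79785690 (-) for Xcl1.
Nkg7: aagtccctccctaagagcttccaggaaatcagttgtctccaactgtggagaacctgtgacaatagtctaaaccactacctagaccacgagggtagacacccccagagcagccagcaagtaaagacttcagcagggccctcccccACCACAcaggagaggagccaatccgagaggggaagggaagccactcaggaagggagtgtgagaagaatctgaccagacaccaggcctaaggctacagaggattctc
Gzmk: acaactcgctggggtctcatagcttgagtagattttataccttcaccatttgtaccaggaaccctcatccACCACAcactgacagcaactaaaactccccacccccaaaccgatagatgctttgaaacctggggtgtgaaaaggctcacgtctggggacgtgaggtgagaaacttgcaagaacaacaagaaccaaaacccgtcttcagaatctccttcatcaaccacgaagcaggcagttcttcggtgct
Gzmm: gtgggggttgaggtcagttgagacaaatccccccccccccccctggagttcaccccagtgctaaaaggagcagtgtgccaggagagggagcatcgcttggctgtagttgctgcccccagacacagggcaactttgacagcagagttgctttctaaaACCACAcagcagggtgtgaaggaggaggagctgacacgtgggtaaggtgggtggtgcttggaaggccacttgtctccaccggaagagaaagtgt
Xcl1: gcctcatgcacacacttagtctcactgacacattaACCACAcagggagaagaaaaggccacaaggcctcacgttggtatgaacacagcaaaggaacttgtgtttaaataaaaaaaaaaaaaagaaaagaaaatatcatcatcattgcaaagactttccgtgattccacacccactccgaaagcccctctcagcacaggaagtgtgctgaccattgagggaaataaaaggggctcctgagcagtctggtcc

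Each of the 4 held ACCACA at 1 place, starting 106 bases before the gene start in Nkg7, 180 in Gzmk, 94 in Gzmm and 215 in Xcl1. TGTGGT on either strand was found in 11 of the 17 promoters of NK or cytotoxic markers (64.7%), which do not include Ccl5, Klrd1 and Ctsw, in 2 of the 10 of T cell markers (20%) and in 4842 of 33469 promoters of the table (14.5%). Of the other motifs searched on both strands, AGGAAG, the core of ETS factors, was found in 8 of 17, 5 of 10 and 29.5% of all, and AGGTGT, the core of T-box factors, in 2 of 17, 3 of 10 and 11.6%. A match is a description of letters, not of binding.

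Within the selected cells, 1133 of 6243 genes with at least 20 UMIs (18.1%) were at least 1.5-fold higher in maternal obesity and 760 (12.2%) at least 1.5-fold lower. With 49 and 87 cells, many of these folds are within counting error. The shares of 18.1% and 12.2% stand beside the counts of higher and lower genes in every list below. Over the lymphoid clusters 778 of 4278 genes (18.2%) were higher and 589 (13.8%) lower. The median log2 ratio of all genes was 0.0015 and -0.016.

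Of genes of the T cell receptor complex and its co-receptors, more were lower than higher over all selected cells, but not within the T cell-like cells. Of 13 genes found, 11 had at least 20 UMIs, with a median log2 ratio of -0.38, and 5 were at least 1.5-fold lower and 1 higher (4 and 1 of 10 in the lymphoid clusters, median -0.51). The 5 were Cd3e, Cd3d, Cd247, Cd8a and Icos, of which Cd3e and Cd3d are selection genes, so the count is a description. Cd247, the zeta chain, gave 86 UMIs in 28 control cells (234.9 CPM) and 91 UMIs in 37 cells of the maternal obesity library (108.8 CPM), 2.16-fold lower (1.59 to 2.93). Cd8a stood at 349.7 CPM (128 UMIs in 17 cells) and 147.0 CPM (123 UMIs in 19 cells), 2.38-fold lower (1.84 to 3.07). Cd8b, the other chain of the co-receptor, did not share this, at 27 UMIs in 8 cells and 60 UMIs in 10 cells and a ratio of 0.972 (0.608 to 1.59). Cd5, a brake on receptor signalling, was the gene that was higher, at 9 and 43 UMIs, 2.09-fold (1.005 to 4.88). Within the T cell-like cells (8 and 9) the ratio was 1.40 (0.911 to 2.16) for Cd3e, 0.987 (0.690 to 1.41) for Cd3d, 1.25 (0.847 to 1.85) for Cd3g, 0.899 (0.559 to 1.44) for Cd247 and 0.951 (0.702 to 1.29) for Cd8a, intervals that all include 1. Cd8b was higher in these cells, with a ratio of 2.33 (1.406 to 3.965). The cluster was formed from the same counts, so these ratios are a description. T cell-like cells were 8 of 49 selected cells in control and 9 of 87 in maternal obesity, and the part of this mix in the values over all selected cells was not tested.

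Of 18 receptor signalling genes measured, 4 were higher and 4 lower, against 18.1% and 12.2% of all genes, with a median log2 ratio of 0.14. Zap70, the kinase after Lck, had a ratio of 1.04 (0.679 to 1.62) and Lat, the adaptor after it, 0.817 (0.613 to 1.10). Among T lineage and naive T cell factors, 2 of 16 were higher and 5 lower, beside the same shares of all genes. Klf2, Ccr7 and Lef1, which go with circulating naive T cells, were 2.04-fold (1.44 to 2.88), 2.50-fold (1.75 to 3.58) and 1.64-fold (1.19 to 2.26) lower. They were not confined to T cells, being found in 15, 8 and 17 of the 29 NK or cytotoxic-like cells of L1. Within the T cell-like cells (8 and 9) the ratios of Klf2 and Ccr7 were 0.229 (0.0915 to 0.504) and 0.292 (0.152 to 0.528). Lef1 was level there, at 0.901 (0.564 to 1.44). Satb1, a chromatin organiser of the T lineage, was higher, with 4 UMIs in 4 control cells and 39 UMIs in 26 maternal obesity cells.

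NK and cytotoxic genes differed in both directions, with more higher than lower by count and Ccl5, the most abundant, lower. Of 28 measured, 10 were at least 1.5-fold higher and 2 lower, with a median log2 ratio of 0.31 (0.37 in the lymphoid clusters, 10 and 1 of 25), while their summed level was lower in maternal obesity, at 10224 CPM against 13116 CPM. Xcl1, which attracts dendritic cells, gave 44 UMIs in 19 of 49 control cells (120.2 CPM) and 267 UMIs in 40 of 87 cells of the maternal obesity library (319.2 CPM), a ratio of 2.66 (1.93 to 3.74), and 3.87 (2.54 to 6.13) in the lymphoid clusters. In MHC class II cells Xcl1 was higher too, with a ratio of 1.73 (62.9 and 108.6 CPM). In epithelial cells and fibroblasts its ratio was 1.66 and 8.56, at levels of 1.68 CPM or less. Prf1, the pore-forming perforin, was found in 10 and 27 cells, with 16 and 67 UMIs and a ratio of 1.83 (1.05 to 3.39). Gzma reached 27 and 93 UMIs, with 47.5% of its UMIs in 1 cell. Gzmk and Klrd1 were level, with ratios of 0.927 (0.770 to 1.12) and 1.07 (0.783 to 1.46). Ccl5, a chemokine gene, was 1.72-fold lower (1.62 to 1.81), and Gzmm and Ctsw had ratios of 0.767 (0.646 to 0.913) and 0.858 (0.747 to 0.988). Gzmb had no UMI in either library, and Ifng had 3 UMIs, all in maternal obesity.

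Genes of the type 2 innate list were lower on balance, 5 of 11 lower and 1 higher, with a median log2 ratio of -0.50 and of -0.97 in the lymphoid clusters. Genes of this list were not confined to type 2 cells. Rora was found in 14 of 29 cells of L1, and Hpgds and Icos in 6 and 7 of 17 cells of L2. Hpgds, which makes prostaglandin D2, differed most in this list, with 21 UMIs in 12 control cells and 8 UMIs in 5 maternal obesity cells. Rora, a factor that type 2 cells need, was 1.74-fold lower (1.16 to 2.61) and Icos 2.05-fold lower (1.33 to 3.15). Il5, Il9 and Arg1 had no UMI, and Il13 had 1 in each library.

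Type 3 and lymphoid tissue inducer genes had few UMIs. Of 12 measured, 7 were higher and 2 lower in all selected cells, with a median log2 ratio of 0.80. The median was -0.07 in the lymphoid clusters, with 4 of 9 higher and 2 lower, and it was -0.0042 without the fibroblast-like cluster alone, an alternative also chosen after the data were seen. Lta, a lymphotoxin gene, gave 5 UMIs in 2 cells and 43 in 6, with 75.0% of all its UMIs in 1 cell. Ahr, a receptor for dietary ligands that type 3 cells need, was found in 9 and 33 cells, with a ratio of 2.82 (1.49 to 5.91). In fibroblasts Ahr was 2.60-fold and in C1q macrophages 3.53-fold higher, while in MHC class II and epithelial cells its ratio was 0.974 and 1.22. Il17a had no UMI.

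Factors shared by innate lymphoid cells differed in both directions, 2 of 13 measured higher and 4 lower, against 18.1% and 12.2% of all genes. Id2, which all innate lymphoid lineages need, was found in 8 control and 24 maternal obesity cells, with a ratio of 2.22 (1.21 to 4.39). Thy1, a surface protein of T and innate lymphoid cells, gave 101 and 135 UMIs in 15 and 19 cells and was 1.71-fold lower (1.31 to 2.23), but only 20 and 15 of these UMIs lay in the lymphoid clusters. Tcf7, a factor of early T and innate cells, was found in 16 and 40 cells, with a ratio of 1.39 (0.906 to 2.19) whose interval includes 1. Ets1, found in 36 and 66 cells, was level at 0.930 (0.739 to 1.18).

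Cytokine and chemokine genes were higher in 5 of 8 measured and lower in 1, but 4 of the 5 rested on single cells. One cell held 67.9% of the UMIs of Ccl3, 83.9% of Ccl4, 50.7% of Csf2 and 75.0% of Lta, and Xcl1 alone of the 5 was spread, with 10.9% in its top cell. Tgfb1, which restrains lymphocytes, was found in 37 and 72 cells and was level, with a ratio of 1.10 (0.888 to 1.36).

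Of 18 cytokine receptor genes measured 3 were higher and 4 lower, against 18.1% and 12.2% of all genes. Il12rb2, through which interleukin 12 drives cytotoxic cells, was found in 13 and 37 cells, with 18 and 90 UMIs and a ratio of 2.19 (1.31 to 3.86). Il10ra, the receptor chain for interleukin 10, went the other way, with 25 UMIs in 11 control cells and 6 UMIs in 5 maternal obesity cells, 9.52-fold lower (3.81 to 28.4), of which 6 and 2 UMIs lay in the lymphoid clusters. Il2rg, the chain common to several interleukin receptors, was found in 38 and 75 cells at a ratio of 1.14 (0.924 to 1.41). Among inhibitory receptors, 3 of 6 measured were higher and 1 lower, beside the same shares of all genes. Cd96, an NK and T cell receptor, was found in 8 and 29 cells, with a ratio of 2.15 (1.18 to 4.26), and Vsir, an inhibitory ligand and receptor, in 8 and 37 cells, with a ratio of 2.41 (1.22 to 5.30).

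Homing genes were mixed. Ccr9 gave 70 UMIs in 16 control cells (191.2 CPM) and 55 UMIs in 15 cells of the maternal obesity library (65.8 CPM), 2.91-fold lower (2.01 to 4.22). In the T cell-like cells its ratio was 0.722 (0.402 to 1.28), an interval that includes 1. In L0 the ratio of Ccr9 was 0.125 (0.0576 to 0.251), from 37 UMIs in 9 of 14 and 11 UMIs in 5 of 21 cells. Itgae, the integrin chain that holds lymphocytes at the epithelium, had a ratio of 1.26 (0.771 to 2.12), and Itgb7, its partner, 1.12 (0.774 to 1.65). Of 21 homing genes measured, 3 were higher and 5 lower, against 18.1% and 12.2% of all genes.

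By the ranking of single genes, 12 were named each way. Higher in maternal obesity were Mdk, Mfap2, Ahnak, Akap12, Ifitm1, Ccnd2, Ier3, Xcl1, Igf2, Mcpt8l3, Hnrnpa2b1 and Rhoa. Several came from the cells of other lineages. Mfap2, a matrix gene, had 6 and 81 UMIs in all selected cells but 3 and 3 in the lymphoid clusters. Akap12 had 5 and 57 UMIs, none of them in the lymphoid clusters, and Ier3 had 5 and 55, with 2 and 2 there. Mcpt8l3 had 274 and 1268 UMIs, with 3 and 22 in the lymphoid clusters, and Mdk had 9 and 125, with 3 and 17 there. Hnrnpa2b1, an RNA-binding protein gene, was 2.17-fold higher (1.75 to 2.70) in the selected cells and 1.84- to 2.28-fold higher in C1q macrophages, MHC class II cells, fibroblasts and epithelial cells, so its difference is found across cell types. Ifitm1, an interferon-inducible gene, was 2.79-fold higher (1.99 to 4.00) in the selected cells and 1.92- to 4.43-fold in those 4 cell types. Igf2 was 3.32-fold higher (1.81 to 6.66) in the selected cells and 1.76- to 2.36-fold in those 4 cell types. For Rhoa the values were 3.31-fold (1.64 to 7.54) and 1.41- to 1.98-fold. Ccnd2, a cyclin of G1, was higher in the lymphoid clusters too, 4 against 31 UMIs, a ratio of 3.93 (1.39 to 15.3).

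Lower in maternal obesity were Fam241a, Herpud1, H1f1, Fdx1, Ccr9, Hsph1, Nqo1, Cdv3, Cd8a, Tnfrsf18, Cd7 and Errfi1. Herpud1, a gene of the endoplasmic reticulum stress response, went from 297.8 CPM (control) to 84.9 CPM, 3.51-fold lower (2.58 to 4.80), with ratios of 0.570 to 0.797 in the other 4 cell types. Fam241a was 3.82-fold lower (2.78 to 5.29), and in the lymphoid clusters its ratio was 0.2135 (0.146 to 0.308). In the other 4 cell types the ratio of Fam241a was 0.369 to 0.893, lowest in fibroblasts. Nqo1, a quinone reductase, was 3.00-fold lower (1.999 to 4.52). Its ratio was 0.273 in MHC class II cells, 0.599 in fibroblasts, 0.617 in C1q macrophages and 1.14 in epithelial cells. Tnfrsf18, a co-stimulatory receptor, was 2.79-fold lower (1.81 to 4.32). Errfi1 was lower in all selected cells, 65 against 58 UMIs, but not in the lymphoid clusters, where its ratio was 1.18 (0.427 to 3.75).

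**Figure D3:**
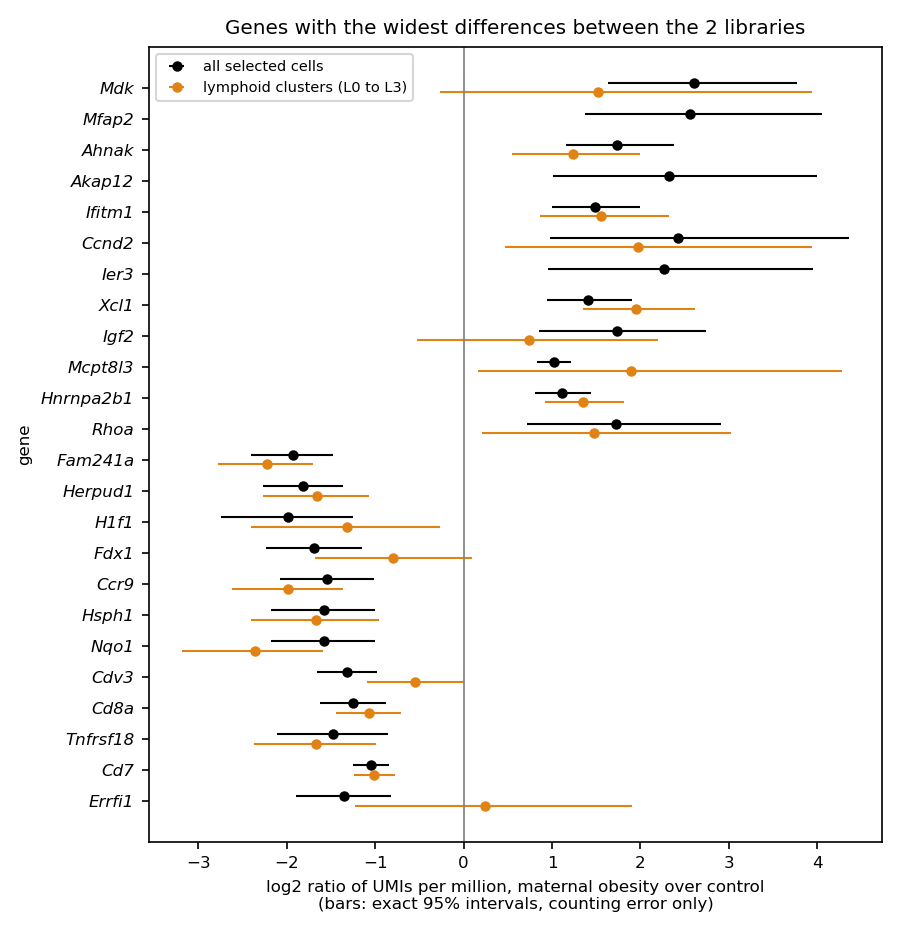
Log2 ratio of CPM in maternal obesity over control, with exact 95% intervals, for the 12 genes ranked higher and the 12 ranked lower, in all selected cells (black) and in the lymphoid clusters (orange, shown from 20 UMIs). Mfap2, Akap12 and Ier3 have no orange point, the orange intervals of Ahnak, Xcl1 and Ccr9 lie off 0, and the orange intervals of Mdk, Igf2, Fdx1, Cdv3 and Errfi1 include 0.

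Within the named classes the few cells allowed a limited comparison. In the NK or cytotoxic-like cells (13 control, 24 maternal obesity, of which 2 and 6 in the cycling L3) Ccl5 stood at 37245 and 19799 CPM, a ratio of 0.532 (0.502 to 0.563). Tyrobp, Fcer1g, Gzmm and Gzma were also lower, with ratios of 0.546 (0.449 to 0.664), 0.611 (0.464 to 0.807), 0.730 (0.601 to 0.889) and 0.387 (0.190 to 0.788). The value of Gzma rested on few cells, with 18 UMIs in 5 of 13 control and 18 UMIs in 4 of 24 maternal obesity cells. Gzmk and Klrd1 were level, at 0.918 (0.756 to 1.12) and 1.01 (0.704 to 1.48). Perforin went the other way: Prf1 stood at 127.5 CPM (7 UMIs in 5 cells) and 373.3 CPM (53 UMIs in 18 cells), a ratio of 2.93 (1.33 to 7.63). Nr4a1, an immediate early gene, was found in 3 of 13 and 20 of 24 of these cells, with 5 and 103 UMIs. Cd7 and Nkg7 are selection genes, so their levels within a class are a description. Cd7 gave 102 UMIs in 11 and 55 UMIs in 14 of the NK or cytotoxic-like cells. In the T cell-like cells (8 and 9) Nkg7 was found in 6 and 2 cells, with 24 and 2 UMIs, and Cd8b in 7 and 8 cells, with 23 and 55 UMIs. In the NK or cytotoxic-like cells the ratio of Xcl1 was 1.42 (0.736 to 2.95), an interval that includes 1. In L0 (14 and 21 cells) Xcl1 was found in 7 and 17 cells, at 149.5 and 707.4 CPM, a ratio of 4.73 (2.68 to 9.10). In the same cluster Cd8a was found in 5 of 14 and 0 of 21 cells. The ratio in L0 was 0.217 (0.111 to 0.410) for Cd247 and 2.22 (1.53 to 3.30) for Fcer1g. The part of the make-up of L0 in its ratios was not tested.

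Lists of cell growth and metabolism differed little over all selected cells, beside 18.1% of all genes higher and 12.2% lower. Of 21 proliferation genes 2 were higher and 2 lower, with a median log2 ratio of 0.06, and none of 18 nuclear oxidative phosphorylation genes was past 1.5-fold (median -0.09). Among genes of the glucocorticoid, leptin and insulin axis 2 of 12 were higher and 3 lower, and Lepr had no UMI. Of 15 lipid and cholesterol genes 3 were higher and 1 lower. Of 19 immediate early and dissociation genes, 6 were higher and 1 lower, and Egr1 gave 31 UMIs in 18 control cells and 322 UMIs in 49 maternal obesity cells, 27.2% of all in 1 cell. Of these 11 and 54 UMIs lay in the lymphoid clusters, where its ratio was 2.49 (1.29 to 5.27) against 4.54 over all selected cells.

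Lists of other lineages were the widest apart. Imprinted fetal growth genes had a median log2 ratio of 2.05 with 9 of 10 higher, and fibroblast genes 2.33 with 7 of 7 higher. Only 3 of the imprinted genes and none of the fibroblast genes reached 20 UMIs in the lymphoid clusters. Smooth muscle genes had a median of -3.54, with 5 of 6 lower, but 0.47 without the top cell of each gene. Col1a1 had 19 UMIs in 1 control cell and 248 in 12 maternal obesity cells. Epithelial genes had a median of -0.84 (7 of 11 lower) and -1.07 in the lymphoid clusters (6 of 8 lower).

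**Figure D4:**
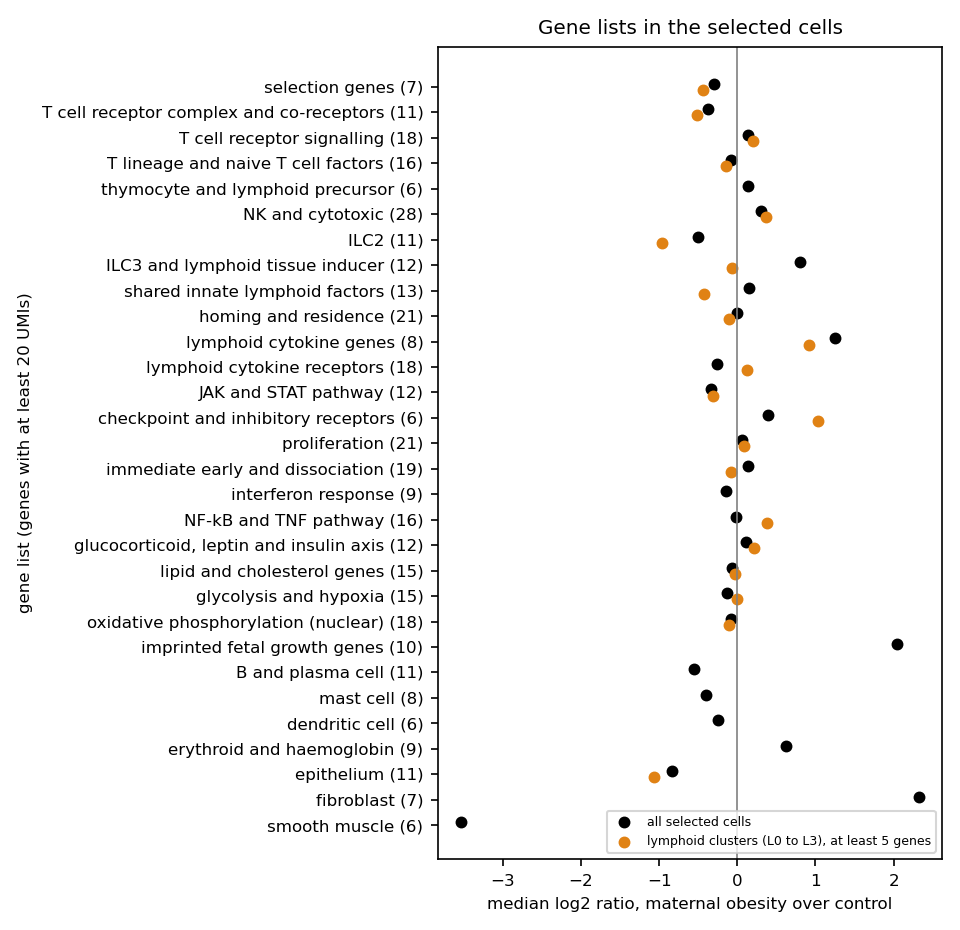
Median log2 ratio between the libraries (positive where maternal obesity is higher) for each gene list with at least 6 measured genes, in all selected cells (black) and in the lymphoid clusters (orange, from 5 genes), with the number of genes in brackets. Imprinted, fibroblast and smooth muscle genes lie farthest from 0, and the T cell receptor and type 2 innate lists lie below 0 in both sets of cells.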

How the data were processed

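Single cells of E19.5 fetal rat colon were profiled on the 10x Chromium in 1 control and 1 maternal obesity library. The authors deposited whole-number UMI counts per gene and barcode. Cell Ranger is version 2.1.1 per the submitters' processing notes and 6.1.2 per the file headers. No build is named there, and the aligner's reference was not given in the sources used here. The 30400 identifiers were summed to 28116 symbols, and Il7r, Trac, Trbc1, Trbc2, Trdc, Trgc1 and Trgc2 were not analysed here. UMIs were summed over the selected cells of each library and divided by their total (CPM). Ratios have exact conditional binomial intervals, shares Clopper-Pearson intervals, both at 95% and for counting error only. UMIs are molecules, but cells of a library share its preparation. The cells were clustered with scanpy 1.11.5 (2000 variable genes, 20 components, 15 neighbours, Leiden resolution 1). Scrublet called 0.872% and 1.85% of kept barcodes against an expected 7.12% and 7.77%, so no barcode was removed as a doublet. The ratio step was tested on simulated data (6243 genes, 200 changed), where the intervals covered the true ratio in at least 96% of genes at every simulated ratio. The simulated totals held counting error only and no variation between cells. The simulation therefore cannot show the coverage for genes whose UMIs lie in few cells. Named genes were the selection genes, listed genes with at least 20 UMIs, leading genes of clusters, the 20 highest over other barcodes, and the 12 higher and 12 lower genes whose interval bound nearest 1 lay farthest from 1, among 3077 genes with at least 50 UMIs, in at least 10 cells, and at most 25% of UMIs in 1 cell. Fcer1g, Nr4a1 and other genes outside this rule were named after their values were seen, and a few listed genes are not reported here. The selected cells and all lists were chosen with earlier results of these data known.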

Additional observations from a re-analysis of the deposited data

How the results depend on the processing

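No paired analysis was possible because each group has 1 library, the libraries carry different replicate numbers and no result comes from a test, and for the same reason no library could be left out. With at least 3 selection genes the control and maternal obesity shares of kept barcodes were 0.436% and 0.746%, with at least 4 they were 0.204% and 0.470%, after thinning every cell to 1 fixed depth it was 0.895% in maternal obesity, and over the lymphoid clusters alone 0.509% and 0.746%. The ratio of shares lay between 1.47 and 2.31 under all 9 settings. With a minimum of 10 UMIs 1913 genes were higher and 1172 lower, and with 100 UMIs 148 and 142. The share with T cell markers was 63.3% and 50.6% without thinning, 25% and 14.0% at 1000 UMIs, 68.8% and 50.6% for at least 1 marker, 16.7% and 12.9% for at least 3, 37.7% in maternal obesity with at least 3 selection genes, and 58.8% and 41.5% in the lymphoid clusters. It was higher in control under each of these. The share with NK or cytotoxic markers in maternal obesity was 78.2% without thinning, 51.2% at 1000 UMIs, 47.1% for at least 3 markers and 77.4% in the lymphoid clusters, and for at least 1 marker the 2 libraries gave 77.1% (control) and 77.7%. The share with type 2 markers was 32.7% and 26.4% without thinning and 35.4% and 24.7% for at least 1 marker, and in control 4.17% at 1000 UMIs and 8.33% for at least 3. The share with type 3 markers was 25% and 30.6% for at least 1 marker, and in maternal obesity 17.2% without thinning and 1.18% for at least 3. The lymphoid clusters held 40.8% and 37.9% of the cells at resolution 0.5, and 90% and 75.9% with at least 3 selection genes. With at least 3 selection genes the fold over other barcodes was 47.1 and 28.7 for Ptprc, and in maternal obesity 197 for Ctsw and 78.0 for Klrb1b. The log2 ratio of Errfi1 turned to 0.45 with at least 3 selection genes and 0.18 in the lymphoid clusters, where those of Mfap2, Akap12 and Ier3 were -0.98 each, from 6 UMIs or fewer. The median of the type 3 list was -0.30 with at least 3 selection genes, -0.26 with at least 100 UMIs, -0.0705 in the lymphoid clusters and -0.0042 without the fibroblast-like cluster, and that of the smooth muscle list was 0.47 without the top cell of each gene. The cause was not tested in any of these. Of all 306 values for named genes under the alternatives 270 stayed within the limits set for an equal result, 31 moved past them and 5 reversed, and of all 316 for lists 307 stayed, 4 moved and 5 reversed. The 136 cells set the depth: with 20 UMIs in the lymphoid clusters, the ratio of Errfi1 had an interval of 0.427 to 3.75.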
